A study of Danio rerio with 2 samples.

Results

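Transcripts of 6 lysosomal genes were followed through the cells of the adult male zebrafish hypothalamus. They are the cathepsin genes ctsba, ctsd, ctsc and ctsh, the legumain gene lgmn and the granulin gene grna.2, and each was found under its own name as 1 of the 32057 features listed in both count tables. Ctsba and grna.2 were selected on their measured UMI counts, which were lower in the knockout library, and the other 4 were named beside them as lysosomal genes, so the contrast between the libraries is given as a description and supports nothing. The study asked how cholecystokinin (CCK), a peptide of gut and brain, acts on reproduction, and compared wild-type fish (WT) with fish in which both cck genes had been disrupted by CRISPR/Cas9 (CCK1/2-KO, the double mutant cck1-/-;cck2-/-). The fish were 6-month-old males of the AB strain, and the labels name no treatment. Hypothalami of 30 fish were collected per genotype, dissociated with trypsin, EDTA and DNase II, and captured with 10x Genomics droplets as 1 library a genotype. Genotype, pool of fish, dissociation and library run therefore coincide and cannot be told apart, and no p-value is given.

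Lysosomes are acidic compartments in which cells break down proteins, lipids and engulfed material. Cathepsins are their main proteases, made as inactive precursors, and legumain is a protease that cuts several of them into mature forms. Progranulin is a secreted glycoprotein that is carried to lysosomes and cut there into granulin peptides. In the mammalian brain, microglia, the resident macrophages, are rich in cathepsins and progranulin, and loss of progranulin in humans is a cause of frontotemporal dementia.

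The WT library held 8543 cells after filtering, with a median of 3047 unique molecular identifiers (UMIs, each standing for 1 captured transcript), and the CCK1/2-KO library 10393 cells with a median of 2878. Levels are UMIs of a gene per 1000000 UMIs of the same cells (CPM), and ratios are given as log2 of the CCK1/2-KO level divided by the WT level. Ranges in parentheses are exact 95% intervals of the counting error, and they leave out variation among fish or preparations. The edited gene ccka had 17871 WT and 8581 CCK1/2-KO UMIs, 2.31-fold lower per total, in the direction of the labels.

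Cell classes were set from raw counts by marker genes. The microglia gate, at least 3 of c1qa, c1qb, c1qc, csf1ra and mpeg1.1 and more of these than markers of any other class, held 66 WT and 117 CCK1/2-KO cells. Every cell of the gate carried ccl34b.1. The summed level of 5 resident microglia genes, ccl34b.1 included, was 10058 CPM in WT and 8532 CPM in the knockout. Of the 5 genes 4 were detected, apoeb was at 0 in both, and ccl34b.1 alone was 8245 and 6672 CPM. Slc7a7 was found in 80.3% and 96.6% of the cells, havcr1 in 83.3% and 75.2% and p2ry12 in 15.2% and 6.84%. Markers of other macrophages or dendritic cells summed to 450 CPM in each library, with lgals2a at 341 and 322 CPM. Of the 4 markers of T or NK cells that were found, all were at 0 in the gate. Markers of B cells and of neutrophils had 2 or 3 UMIs in each library. The gate's own markers differed between the libraries, with mpeg1.1 at 1384 CPM in WT and 775 in the knockout and csf1ra at 348 and 552. In the gate, summed astroglia markers were 902 and 784 CPM, neuron markers 126 and 96.8 CPM and myelin markers 211 and 103 CPM. Their part in the values below was not tested.

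Among the 7 classes, 5 of the 6 genes were highest in microglia in both libraries, and the other, grna.2, was not. Cells with mpeg1.1 as their only microglia marker, gathered below as an extra set, are not ranked here and count among the other cells. In them ctsba was 1154 CPM in WT and 210 CPM in CCK1/2-KO, beside 1414 and 197 CPM in the gate. Ctsd, ctsc, ctsh and lgmn were lower in them than in the gate in both libraries. The level in microglia was at least 2-fold that of all other cells for ctsba, ctsd, ctsc, ctsh and lgmn in each library, beside 12.4% of all genes in WT and 12.1% in the knockout. Ctsc, which encodes a dipeptidyl peptidase that in mammals activates serine proteases of immune cells, was 25.1-fold higher in WT microglia than in other WT cells and 19.2-fold higher in CCK1/2-KO. Ctsh, an aminopeptidase, was 15.3-fold and 11.8-fold higher. For ctsba, a cysteine protease, the enrichment was 13.3-fold and 11.1-fold. The enrichment was smaller for lgmn, at 6.17-fold and 7.27-fold, and for the aspartic protease gene ctsd, at 3.94-fold and 4.49-fold. The microglia interval lay apart from that of the next class for each of these 5 genes in both libraries.

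**Figure D1:**
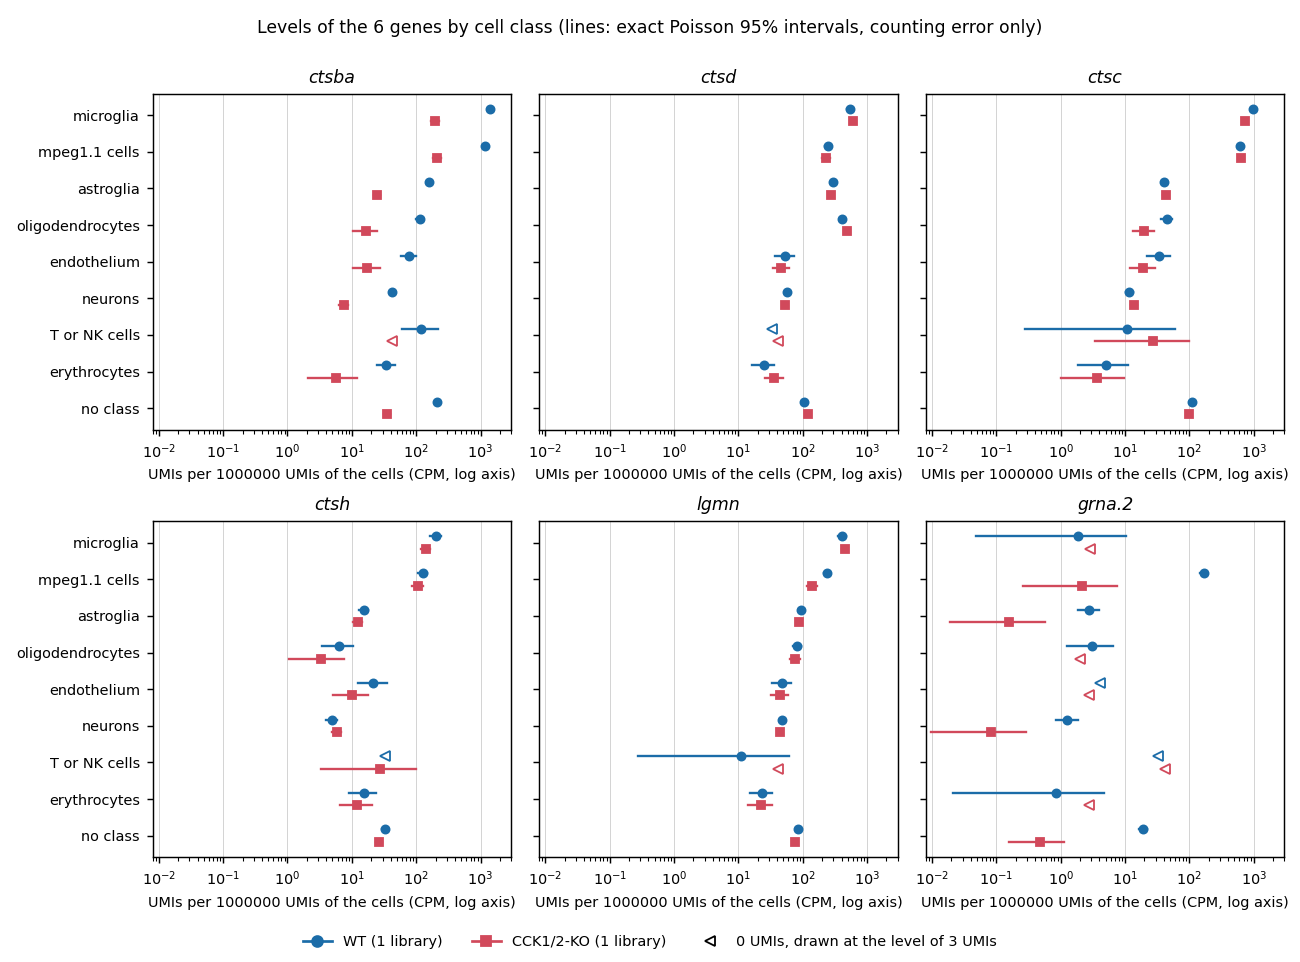
Levels of the 6 genes (CPM, log axis) in each cell class of the WT library (blue circles) and the CCK1/2-KO library (red squares), with exact Poisson 95% intervals as lines and open triangles for 0 UMIs, drawn at the level of 3 UMIs. The ctsba points of the libraries are apart in each class with a point for both, from 1414 against 197 CPM in microglia to 33.9 against 5.59 CPM in erythrocytes, while those of ctsd, ctsc, ctsh and lgmn lie within 2-fold of each other in each class with at least 10 UMIs, apart from ctsc in oligodendrocytes (44.2 against 19.7 CPM) and ctsh in endothelium (21.6 against 10.1 CPM), and grna.2 is near 0 in the microglia gate.

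Over all cells, 2 of the 6 genes were at least 2-fold lower in CCK1/2-KO and none was at least 2-fold higher. Among the 19933 genes with at least 50 UMIs over both libraries, 2.49% were at least 2-fold lower and 1.64% at least 2-fold higher. These counts describe how the genes were chosen.

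Ctsba (ENSDARG00000055120) had 5757 UMIs in WT and 1121 in the knockout, levels of 121 CPM (118 to 124) and 21.3 CPM (20.1 to 22.6). Ctsba thus had a log2 ratio of −2.51 (−2.60 to −2.41), and 60 genes were lower. Ctsba was detected in 1901 of the 8543 WT cells (22.3%) and 500 of the 10393 knockout cells (4.81%). It was therefore both less abundant and carried by fewer cells in the knockout library.

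In the microglia gate ctsba had 751 UMIs in WT and 208 in the knockout, or 1414 CPM (1314 to 1519) and 197 CPM (172 to 226). This gave a log2 ratio of −2.84 (−3.07 to −2.62), and 5 of the 3118 genes with at least 50 UMIs in microglia were lower. The median cell carried 6 UMIs in WT and 0 in the knockout. Of the 66 WT microglia 77.3% (65.3 to 86.7) had a UMI, against 30.8% (22.6 to 40.0) of the 117 CCK1/2-KO cells, at median depths of 8318 and 9269 UMIs. After each cell was thinned to 1000 UMIs, which left out 3 WT cells, the shares were 57.1% and 13.7%. Erythrocytes served as a measure of free RNA. Their thinned counts were 4 of 139 and 2 of 166 cells, and their unthinned shares 15.1% and 2.41%. Their median depths were 8390 and 5703 UMIs. At least 50% of their UMIs were globin, which lowers the CPM and thinned share of other genes in them, here and below. Both microglia shares lay above those of erythrocytes in the same library. The UMIs were unevenly spread, and the 3 highest cells held 19.2% of them in WT and 35.1% in the knockout. Without these cells the log2 ratio was −3.19.

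**Figure D2:**
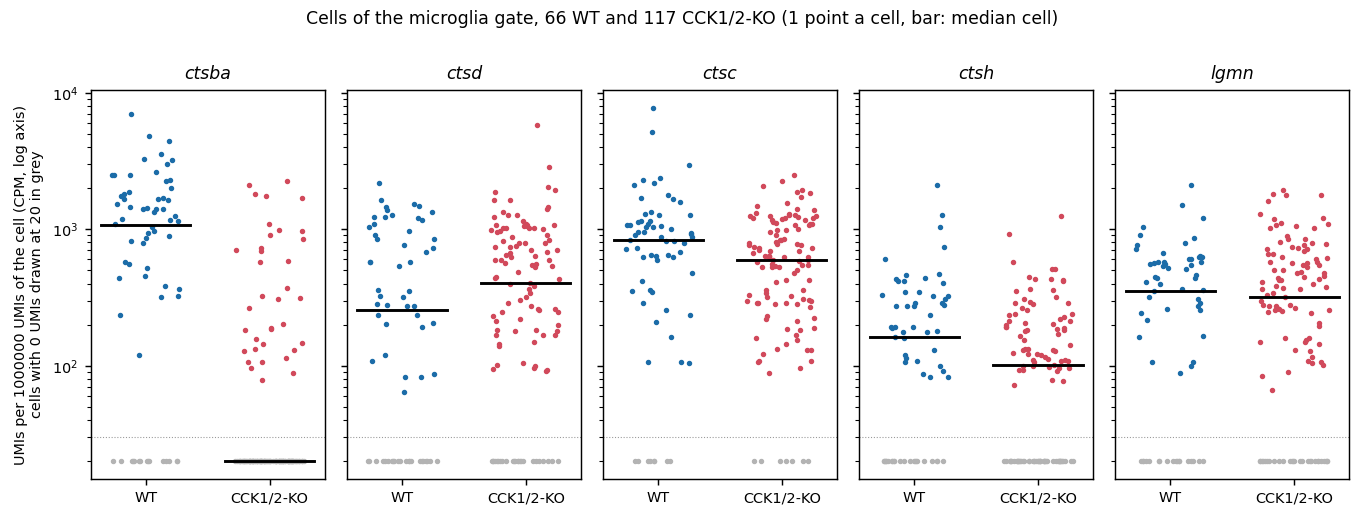
Level of ctsba, ctsd, ctsc, ctsh and lgmn in each cell of the microglia gate (CPM of the cell, log axis), with 1 point a cell, cells without a UMI in grey and the median cell as a bar. For ctsba 51 of 66 WT cells carried a UMI and 36 of 117 CCK1/2-KO cells did, and the CCK1/2-KO cells that carried it reached 29 UMIs in the highest cell.

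The lower ctsba of the knockout library was present in each class with at least 50 UMIs of it. It was at least 2-fold lower in astroglia, oligodendrocytes, neurons, endothelium and cells of no class, beside 2.51%, 4.81%, 1.71%, 4.18% and 2.39% of all genes with that many UMIs in each of these. In astroglia ctsba had 158 CPM in WT and 24.8 in the knockout, a log2 ratio of −2.67 (−2.85 to −2.50). Oligodendrocytes gave −2.81 (−3.46 to −2.21) from 258 and 25 UMIs. Endothelium gave −2.14 (−2.97 to −1.37) from 57 and 19 UMIs. These intervals overlap one another and that of microglia. In neurons the ratio was −2.52 (−2.76 to −2.29), from 42.7 and 7.43 CPM. The neuronal levels did not differ beyond their intervals from those of erythrocytes, 33.9 CPM (24.2 to 46.2) in WT and 5.59 CPM (2.05 to 12.2) in CCK1/2-KO, and the erythrocyte ratio was −2.60 (−4.13 to −1.35). How much of the signal in these classes was free RNA was not tested. In T or NK cells 11 WT UMIs stood against 0 in CCK1/2-KO, at least 2.89-fold lower against a floor of 3 counts in that library.

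Leaving out every cell with any UMI of the microglia markers, a setting added after the data were seen, kept 7717 WT and 9604 CCK1/2-KO cells. Among these, 2823 and 612 UMIs of ctsba gave a log2 ratio of −2.38 (−2.51 to −2.25). Ratios by class in these cells ran from −2.12 in oligodendrocytes to −2.53 in erythrocytes, among astroglia, oligodendrocytes, neurons, endothelium and erythrocytes. The lower ctsba was thus also measured in cells without a transcript of these markers.

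The order of classes was alike in both libraries. Microglia were followed by astroglia, and the intervals of oligodendrocytes and T or NK cells overlapped in WT, as did those of endothelium and oligodendrocytes in CCK1/2-KO. Neurons and erythrocytes were lowest among classes with at least 1 UMI of the gene. Cells of no class were not ranked, and their ctsba level was 214 CPM in WT and 35.0 CPM in CCK1/2-KO. Both values lay above those of astroglia, 158 and 24.8 CPM.

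The genes listed beside ctsba did not share its ratio. On one side wdr43 had a log2 ratio of −0.14, samd8 of 0.28 and si:dkeyp-9a1.3 of 0.37, and on the other RPS6KL1 had 0.03, cgref1 −0.49 and htra1a −0.35. The remaining 4 of its 10 listed neighbours had fewer than 50 UMIs. The paralog ctsbb had 43 UMIs in WT and 108 in the knockout, a log2 ratio of 1.18 (0.66 to 1.73), and 0 in microglia of both libraries. In the extra set of mpeg1.1 cells described below ctsbb had 19 and 42 UMIs, a ratio of 1.57 (0.76 to 2.44). Without cells carrying a microglia marker it had 24 and 47 UMIs and a ratio of 0.79 (0.06 to 1.57). Reads of near-identical stretches could be split between paralogs. The sum of ctsba and ctsbb still gave −2.39 (−2.48 to −2.30).

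Ctsd, ctsc, ctsh and lgmn were measured at similar levels in both libraries over all cells. Ctsd (ENSDARG00000057698) had 6719 UMIs in WT and 7543 in the knockout, 142 and 144 CPM, with a log2 ratio of 0.02 (−0.03 to 0.07). Lgmn (ENSDARG00000039150) had 3342 and 3629 UMIs, or 70.4 and 69.1 CPM, and −0.03 (−0.10 to 0.04). The intervals of both exclude a 2-fold difference between these libraries.

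Ctsc (ENSDARG00000101334) had 2365 and 2739 UMIs, 49.8 and 52.1 CPM, and a log2 ratio of 0.07 (−0.01 to 0.15). Ctsh (ENSDARG00000041108) had 732 and 755 UMIs, 15.4 and 14.4 CPM, with −0.10 (−0.25 to 0.05). The middle range of all 19933 genes ran from −0.18 to 0.18, and all 4 ratios lay inside it.

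Within the microglia gate 1 of the 6 genes, ctsba, was at least 2-fold lower in CCK1/2-KO and none was at least 2-fold higher, beside 4.30% and 5.32% of the 3118 genes with at least 50 UMIs there. Ctsc was 985 CPM (902 to 1073) in WT and 733 CPM (682 to 787) in the knockout library, with a log2 ratio of −0.43 (−0.59 to −0.26). Ctsh was 203 CPM (167 to 245) and 140 CPM (118 to 164), with −0.54 (−0.91 to −0.17). Both lay below the median of all genes in microglia, which was 0.02, but inside 2-fold.

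Ctsd was 540 CPM (480 to 607) in WT microglia and 602 CPM (556 to 651) in the knockout, with a log2 ratio of 0.16 (−0.05 to 0.36). Lgmn was 410 CPM (358 to 469) and 446 CPM (407 to 488), with 0.12 (−0.11 to 0.36). Their intervals include equal levels.

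Most microglia carried several of the genes at a time. In WT 25 of 66 cells (37.9%) had a UMI of 5 of the 6 genes, against 15 of 117 cells (12.8%) in CCK1/2-KO. The commonest number in CCK1/2-KO was 4 genes, in 43 cells (36.8%). No cell of the gate carried all 6, and grna.2 had only 1 UMI in WT and 0 in the knockout there. Cells with 5 genes thus carried the other 5, ctsba included. Ctsba was chosen for its lower count, so the smaller share in CCK1/2-KO is in part built in.

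After microglia, ctsd was highest in oligodendrocytes in both libraries. Oligodendrocytes had 413 CPM (387 to 441) in WT and 491 CPM (457 to 528) in CCK1/2-KO, and astroglia 296 and 279 CPM. In neurons the level was 57.8 and 52.3 CPM, and in erythrocytes 24.6 and 36.3 CPM. Oligodendrocytes with a ctsd UMI made up 52.6% of the class in WT and 61.3% in the knockout, against 18.0% and 18.1% of erythrocytes. After thinning 119 of 403 WT and 104 of 306 CCK1/2-KO oligodendrocytes had one, against 3 of 139 and 8 of 166 erythrocytes. Median depths were 3689 and 3681 UMIs in oligodendrocytes.

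Lgmn in astroglia was 94.9 CPM in WT and 86.0 in the knockout, and in oligodendrocytes 81.2 and 76.3. The interval of neurons, at 47.6 and 44.4 CPM, overlapped that of endothelium in each library. For ctsh, astroglia, at 15.2 and 12.4 CPM, did not differ from erythrocytes, at 15.3 and 12.1 CPM, beyond counting error, and neurons were lower, at 4.87 and 5.84 CPM.

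Ctsc had 1 class in which it was at least 2-fold lower in CCK1/2-KO, the oligodendrocytes, with 99 and 30 UMIs and a log2 ratio of −1.16 (−1.80 to −0.56), beside the same 4.81% of the 7920 genes with at least 50 UMIs there. The UMIs lay in 32 of the 527 WT cells and 16 of the 375 knockout cells. The macrophage gene mpeg1.1 moved with it in these cells, at 116 CPM in WT and 20.4 in the knockout. Without cells carrying any microglia marker, ctsc had 31 and 19 UMIs there and a log2 ratio of −0.13 (−1.04 to 0.74). This interval includes equal levels and also a 2-fold lower level, so whether the difference was absent without these cells cannot be told. The granulin grna.1 had 332 and 19 UMIs in this class with these cells (−3.57). Without them it had 27 and 18 UMIs and a ratio of −0.01 (−0.96 to 0.90).

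Grna.2 (ENSDARG00000088641) had 247 UMIs in WT and 9 in the knockout, or 5.20 CPM (4.57 to 5.89) and 0.171 CPM (0.0783 to 0.325). This gave a log2 ratio of −4.92 (−6.07 to −3.98), and 11 of the 19933 genes had a lower one. Without cells carrying any UMI of the microglia markers, mpeg1.1 included, 28 and 7 UMIs of grna.2 were left and the log2 ratio was −2.18 (−3.62 to −0.95). In the microglia gate 1 UMI was found in 66 WT cells and 0 in 117 CCK1/2-KO cells, so no ratio can be given there. The exact upper limit for the share of CCK1/2-KO cells with a UMI was 3.10%. Of the WT UMIs, 180 lay in cells that met no class, 29 in astroglia, 29 in neurons, 7 in oligodendrocytes and 1 in erythrocytes. Endothelium and T or NK cells had none in either library. In CCK1/2-KO the 9 UMIs were 5 in cells of no class, 2 in astroglia and 2 in neurons.

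The WT cells with more than 1 UMI of grna.2 were few and alike in their markers. The gene was found in 79 WT cells, and 31 of them had at least 2 UMIs and held 199 of the 247. All 31 carried mpeg1.1, a perforin-like gene of macrophages, and none carried c1qa, c1qb, c1qc or csf1ra. Of these cells 30 also had a UMI of grna.1, 28 of id2a and 22 of flt3. Id2a and flt3 were used here as markers of other macrophages or dendritic cells. Lgals2a, s100a10b and ccr2, the rest of that marker list, were not counted in these cells. Among all 79 WT cells with at least 1 UMI, 48 carried mpeg1.1 and 4 carried at least 1 of c1qa, c1qb, c1qc and csf1ra. In CCK1/2-KO 9 cells had 1 UMI each, 2 of them with mpeg1.1 and 0 with any of those genes. No knockout cell had more than 1 UMI.

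Cells with mpeg1.1 were therefore gathered more widely as an extra set, defined after the values were seen. It took cells with at least 2 UMIs of mpeg1.1 and none of the other 4 microglia markers that were not erythrocytes. The set overlaps with the classes above, with 40 WT cells in astroglia, 14 in neurons, 12 in oligodendrocytes and 1 in T or NK cells. In CCK1/2-KO 33 of its cells were in astroglia, 7 in neurons and 2 in oligodendrocytes. The set held 203 WT cells (2.38% of kept cells) and 160 CCK1/2-KO cells (1.54%), with median depths of 6697 and 5843 UMIs, of which 136 and 118 met no class. Markers of other macrophages or dendritic cells summed to 1236 CPM in WT, with 4 of 5 detected, and to 1052 CPM in the knockout, with all 5 detected. Flt3 was detected in 47.3% of the set in WT and 52.5% in the knockout, and id2a in 73.4% and 70.0%. The rest of that list was rarer, with lgals2a in 22.7% and 14.4%, s100a10b in 4.93% and 3.75% and ccr2 in 0% and 0.625%. These were commoner in the microglia gate, with lgals2a in 66.7% and 76.1%, s100a10b in 7.58% and 14.5% and ccr2 in 18.2% and 5.13%. Flt3 was in 0% and 0.855% of the gate and id2a in 21.2% and 14.5%. Resident microglia genes summed to 913 and 1067 CPM in the set. Of these slc7a7 was in 72.4% and 75.6% of cells, ccl34b.1 in 22.2% and 33.1%, havcr1 in 1.48% and 4.38% and p2ry12 in 0.985% and 0.625%. Mpeg1.1 itself was 2818 CPM in WT and 1995 in the knockout. Other types differed in their share of transcripts, with summed B cell markers at 6.27 and 60.1 CPM, T or NK markers at 26.6 and 10.6 CPM and oligodendrocyte markers at 369 and 134 CPM. The part of these in the values below was not tested.

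In these mpeg1.1 cells 212 grna.2 UMIs stood against 2 in the knockout, 166 CPM (144 to 190) and 2.11 CPM (0.256 to 7.62), with a log2 ratio of −6.30 (−9.35 to −4.43). It was found in 44 of the 203 WT cells (21.7%) and 2 of the 160 knockout cells (1.25%). After thinning the WT share was 12.5% (8.09 to 18.2), and 0 of 153 knockout cells had a UMI, which allows up to 2.38%. Among thinned erythrocytes 0 of 139 and 0 of 166 had one, which allows a WT share of up to 2.62%. Of the 212 WT UMIs 199 lay in 31 of the 203 cells, and the 3 highest cells held 26.4%.

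Ctsba was again lower in these cells, at 1154 CPM (1095 to 1214) in WT and 210 CPM (182 to 241) in the knockout, with a log2 ratio of −2.46 (−2.68 to −2.24). Thus 2 of the 6 genes were at least 2-fold lower in the mpeg1.1 cells and none at least 2-fold higher. The shares were 4.54% and 6.16% of the 4954 genes with at least 50 UMIs there. Both genes had been chosen for their lower counts, and the set was modelled on WT cells with grna.2. The count of 2 therefore describes how genes and cells were chosen. Lgmn was 240 CPM (214 to 269) and 141 CPM (118 to 167), with −0.77 (−1.07 to −0.47). Ctsd had a ratio of −0.11 (−0.36 to 0.15), ctsc of 0.06 (−0.10 to 0.21) and ctsh of −0.25 (−0.62 to 0.12). Each of these 3 intervals includes equal levels.

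The other granulin genes did not follow grna.2. Grna, a large zebrafish progranulin gene related to human GRN, had 2249 UMIs in WT and 3183 in the knockout, with a log2 ratio of 0.35 (0.28 to 0.43). The direction turned without cells carrying a microglia marker, where grna had 429 and 422 UMIs and a ratio of −0.20 (−0.40 to −0.00). Microglia made up 0.773% of the kept cells in WT and 1.13% in the knockout. Outside the microglia gate grna was 35.8 CPM in WT and 38.9 CPM in the knockout. The part of the gated cells in the grna ratio over all cells was not tested beyond this. Grna was the granulin enriched in the microglia gate, at 1073 CPM (987 to 1165) and 1122 CPM (1059 to 1188), with a ratio of 0.06 (−0.08 to 0.21). The other large gene, grnb, had 444 and 486 UMIs and a ratio of −0.02 (−0.20 to 0.17). It was found at low levels in most classes, and in the microglia gate it had 7 and 13 UMIs.

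Grna.1, a short granulin gene listed near grna.2, had 4751 and 4456 UMIs and a ratio of −0.24 (−0.30 to −0.18). In the mpeg1.1 cells it was 3185 CPM in WT and 3692 in the knockout, with a ratio of 0.21 (0.15 to 0.28). The mpeg1.1 cells of both libraries thus carried grna.1, and the difference of grna.2 was not shared by grna.1. The granulin feature grnas, which lies closer to grna.2 in the list, was at 0 in both libraries. A difference between the fish pools in the sequence of grna.2 cannot be told apart from a difference in its level in these counts. How reads that match both grna.1 and grna.2 were counted is not given in the sources used here, so their sum is given as well. The sum was 4998 and 4465 UMIs over all cells, a ratio of −0.31 (−0.37 to −0.25). In the mpeg1.1 cells it was 4279 and 3501 UMIs, a ratio of 0.14 (0.08 to 0.21). All 5 granulin features together gave −0.07 (−0.11 to −0.02) over all cells and 0.19 (0.13 to 0.25) in the mpeg1.1 cells.

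**Figure D3:**
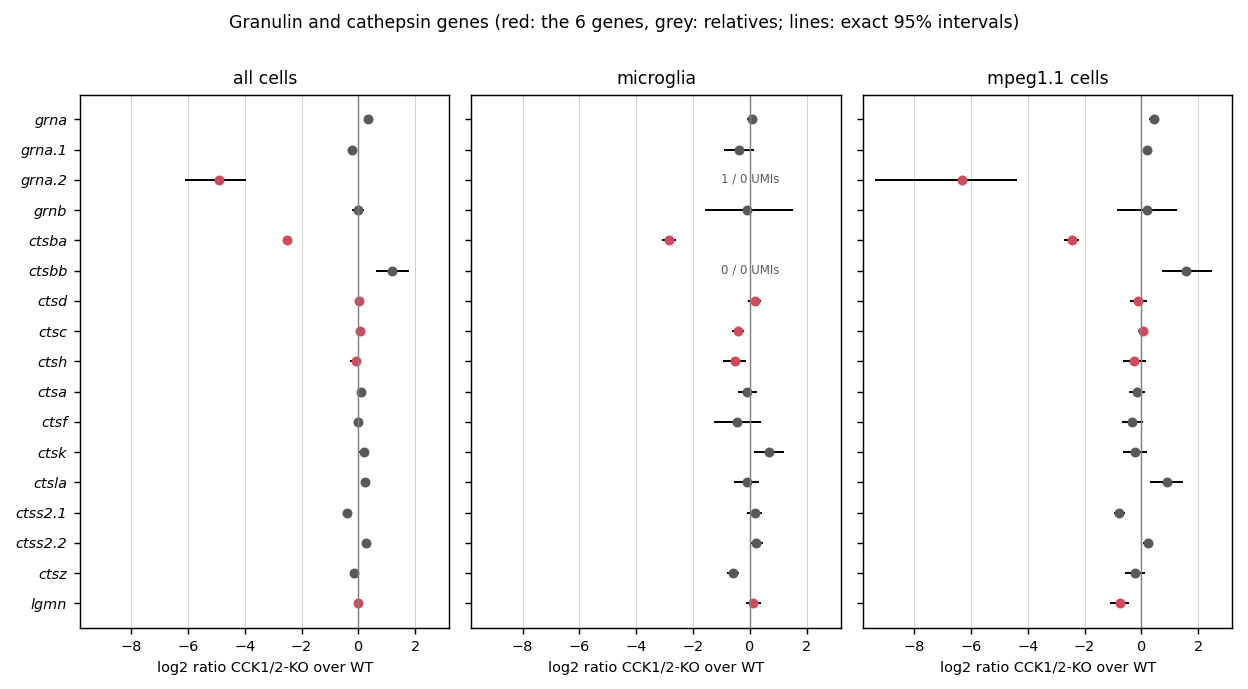
Log2 ratios of CCK1/2-KO over WT for granulin and cathepsin genes in all cells, in the microglia gate and in the mpeg1.1 cells, with exact 95% intervals as lines and counts in place of a point under 10 UMIs. The points of ctsba (−2.51, −2.84 and −2.46) and of grna.2 (−4.92 and −6.30, with no ratio in microglia) lie to the left of the relatives drawn. Not all cathepsins are drawn. Of those left out, ctsll had a ratio of −2.47 (−5.70 to −0.24) over all cells, from 10 and 2 UMIs. In the mpeg1.1 cells ctsll had −2.74 (−8.19 to 0.11), from 9 and 1 UMIs.

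The neighbours of grna.2 in the feature list did not have its ratio either. Pard6gb gave −0.16, efcab1 −0.60, zcchc17 −0.18 and illr4 0.42 on the log2 scale. With grna.1, these were the 5 of 10 neighbours that had at least 50 UMIs.

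**Figure D4:**
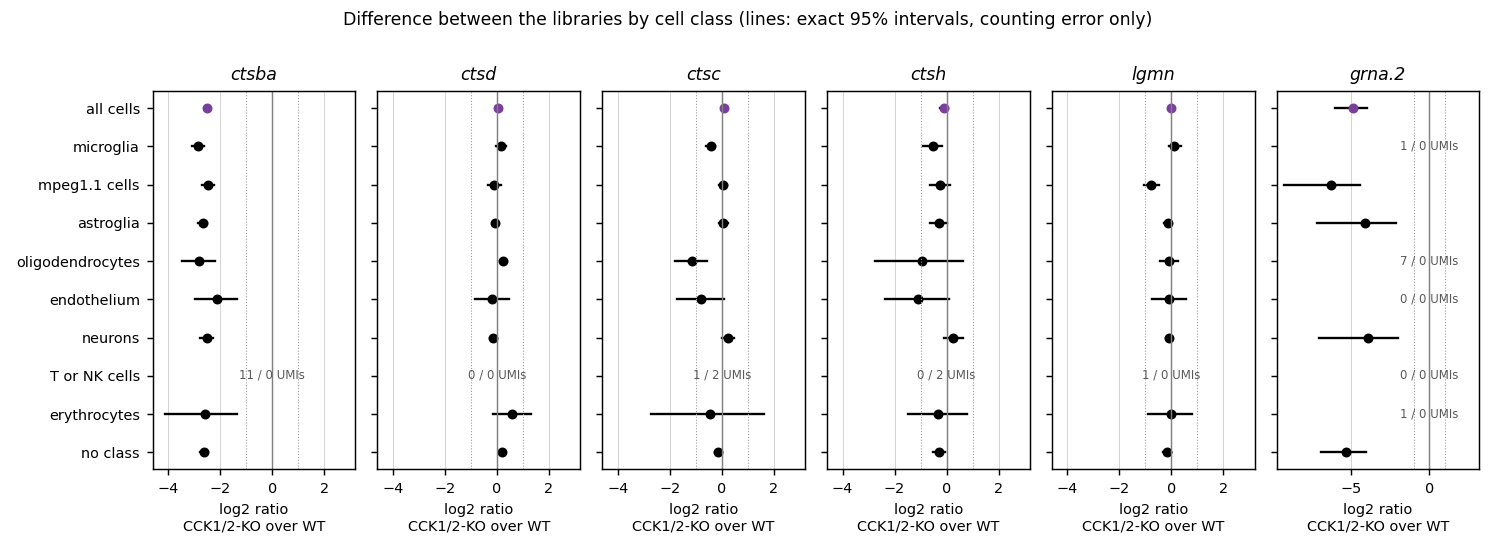
Log2 ratio of CCK1/2-KO over WT for each of the 6 genes in all cells and by class, with exact 95% intervals as lines, dotted lines at a 2-fold difference and WT / KO UMIs printed where there were under 10 or no ratio. Ctsba lies between −2.14 in endothelium and −2.84 in microglia in each class with a point, and the ratios of ctsd, ctsc, ctsh and lgmn lie within 2-fold apart from −1.16 for ctsc in oligodendrocytes and −1.09 (−2.35 to 0.10) for ctsh in endothelium.

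The rest of the lysosome was examined with a list of 117 other features, of which 109 had at least 50 UMIs over all cells. None was at least 2-fold lower in CCK1/2-KO and 3 were at least 2-fold higher, beside 2.49% and 1.64% of all genes, and the median log2 ratio was −0.04, beside −0.01 for all genes. The 3 were ctsbb, npc2.2, of the family that binds cholesterol in the lysosome, at 1.37 (0.83 to 1.95), and tmem175, a lysosomal ion channel, at 1.39 (1.07 to 1.71). The lowest were the acid phosphatase genes acp5a at −0.96 (−1.58 to −0.37) and acp5b at −0.54, and the cathepsin ctss1 at −0.63. Ctsba, outside this list, was lower than each of its genes. The median of the 20 proton pump genes was −0.08 and that of the 42 other enzymes and cofactors −0.04. Of 68 list genes with at least 50 UMIs in oligodendrocytes, 5 were at least 2-fold lower and 0 higher. The counts were 1 and 2 of 94 in astroglia and 0 and 1 of 93 in neurons. Shares of all genes at least 2-fold lower were 4.81%, 2.51% and 1.71%, and shares higher were not counted there. The part of oligodendrocytes carrying a microglia marker was not tested for the list.

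In microglia 55 list genes had at least 50 UMIs, with 1 at least 2-fold lower and 0 at least 2-fold higher, beside 4.30% and 5.32% of all genes there. Their median log2 ratio was −0.11, beside 0.02 for all genes. The lower gene was the proton pump subunit atp6v1e1a at −1.25 (−1.94 to −0.57), from 42 and 35 UMIs. The next lowest were ifi30, a lysosomal thiol reductase used in antigen processing, at −0.70 (−0.89 to −0.50) and gm2a, the activator protein of ganglioside breakdown, at −0.62 (−0.92 to −0.33). The highest were tfe3a, a transcription factor of lysosomal genes, at 0.68 (−0.01 to 1.42), the cathepsin ctsk at 0.66 (0.18 to 1.16) and npc2.2 at 0.57 (−0.22 to 1.43). Since atp6v1e1a rests on few UMIs, it was not counted when at least 200 UMIs were asked for.

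Of the 19 cathepsin features, 16 had at least 50 UMIs over all cells, and 1 of these, ctsba, was at least 2-fold lower while ctsbb was at least 2-fold higher, beside 2.49% and 1.64% of all genes. Ctsba had been chosen for its lower count. The next lowest cathepsin in microglia was ctsz, a carboxypeptidase, at 755 and 498 CPM and a log2 ratio of −0.60 (−0.79 to −0.41). Ctss2.1 and ctss2.2, of the cathepsin S family, had microglia ratios of 0.16 (−0.06 to 0.38) and 0.21 (0.02 to 0.41). Over all cells their ratios were −0.41 (−0.51 to −0.31) and 0.25 (0.16 to 0.34). In the mpeg1.1 cells they were −0.78 (−0.94 to −0.63) and 0.22 (0.09 to 0.35). In oligodendrocytes both were lower, at −2.77 (111 and 11 UMIs) and −1.42 (118 and 30 UMIs). Without cells carrying a microglia marker, 15 and 6 UMIs of ctss2.1 and 7 and 3 of ctss2.2 were left in that class. Ctsf, a cathepsin with 581 and 580 CPM over all cells, was lower in microglia than elsewhere, at 47.1 and 34.2 CPM.

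**Figure D5:**
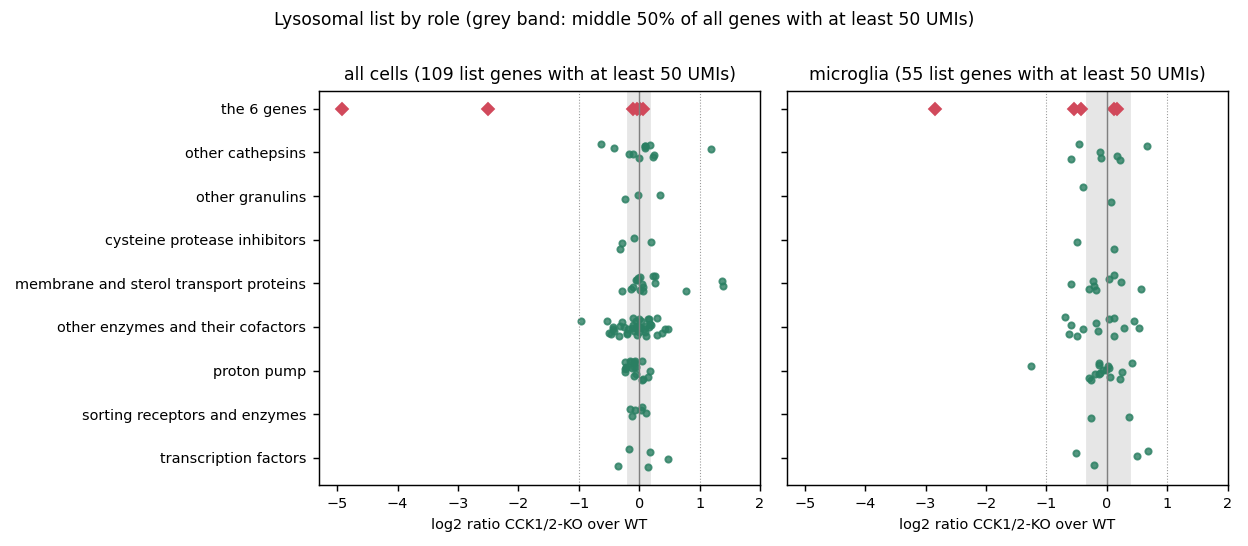
Log2 ratio of CCK1/2-KO over WT for the lysosomal list by role (green, 1 point a gene) and for the 6 genes (red diamonds) in all cells and in microglia, among genes with at least 50 UMIs, with the middle range of all genes in grey. In all cells the list runs from −0.96 to 1.39, while ctsba and grna.2 lie at −2.51 and −4.92.

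The profile of each gene over 14 levels, 7 classes in each library, was compared as log2(CPM + 1) with 18061 genes of at least 100 UMIs, and Pearson's r is given as a description. The most similar to ctsba were ccl35.2 (r = 0.903), galt (0.891), tank (0.883), ifi30 (0.867) and krt18b (0.862). Of these ccl35.2 was itself at least 2-fold lower in CCK1/2-KO, at −1.14. The most similar to grna.2 were si:dkey-18h14.2 (0.932), il12bb (0.840), ENSDARG00000100484 (0.822), ENSDARG00000076277 (0.790) and si:dkey-11p23.7 (0.787). Of these 5, all but ENSDARG00000076277 (−0.85) were at least 2-fold lower in CCK1/2-KO, from −2.01 for il12bb to −5.54 for si:dkey-18h14.2. Il12bb had 541 UMIs in WT and 149 in the knockout, and si:dkey-18h14.2 had 126 and 3. The 14 levels leave out the cells of no class, which held 180 of the 247 WT and 5 of the 9 knockout UMIs of grna.2. The highest of the grna.2 levels was 3.12 CPM and several were at 0. Its correlations therefore rest on few UMIs and leave out most of the cells that carried it. Among the 6 genes themselves, the closest pair was ctsd and lgmn (0.894) and the least alike ctsh and grna.2 (0.147). The 14 levels share 2 libraries and differ in depth, and they hold the contrast on which ctsba and grna.2 were chosen, so lower ratios among similar genes are in part built in.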

How the data were processed

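For each of the 2 libraries the authors deposited raw UMI counts per gene and barcode, made with Cell Ranger, while Seurat is also named in the methods. GRCz11 is the build in the submitters' processing notes. Barcodes were 20 bases long, and 52 occurred in both libraries and were kept as different cells. The libraries held 9364 WT and 11604 CCK1/2-KO barcodes with 51744329 and 58095515 UMIs. Of the 32057 features, 11398 had no own name, and 8368 of these were named from a table of identifiers and symbols.

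A cell needed 500 UMIs, 250 genes and no more than 20% mitochondrial UMIs, and the highest Scrublet scores, 0.8% per 1000 barcodes, were removed as doublets (701 WT and 1077 CCK1/2-KO). Their median depths of 2310 and 2121 UMIs were below those of kept cells. Erythrocytes (at least 50% globin UMIs) were called first, and other classes needed at least 3 of 5 markers and more than of any other class. Cells meeting no class were 3268 in WT and 4149 in CCK1/2-KO, with median depths of 1105 and 1020 UMIs. Among endothelium markers pecam1a and cldn5b were at 0. Of the cells with at least 3 microglia markers, 23 WT and 37 CCK1/2-KO fell outside the microglia class.

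Summed UMIs were scaled to CPM with exact Poisson intervals, ratios have exact intervals for 2 Poisson counts, and shares have exact Clopper-Pearson intervals, all for counting error only. UMIs of 1 cell are not independent, so the intervals are too narrow where few cells hold many UMIs. Single cells do not replicate a genotype, so no test was run. Counts against 0 use a floor of 3 counts. Shares were thinned to 1000 UMIs by 1 random draw.

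The 6 genes and all lists were chosen with earlier results of these data known. Named genes are the 6, all granulins and cathepsins, the 3 lowest and highest of the lysosomal list, the 5 most similar profiles of ctsba and grna.2, the 5 listed genes on each side of these, and ccka. Gate and check markers are named beside these. The cells with mpeg1.1 as their only microglia marker were gathered after the values were seen. Of the edited genes only ccka is reported here, and 1 lysosomal gene was left out of the list and is not reported here. Alternatives were doublets kept, other filters, scalings, gates and UMI minimums. The code was tested on simulated data. Python 3.11.15, scanpy 1.11.5, numpy 2.4.6 and scipy 1.17.1 were used.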

Additional observations from a re-analysis of the deposited data

Results flagged for a closer look

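For ctsc and ctsd the libraries differed in opposite directions in different classes, each time with a counting interval that leaves out 0. Ctsc was lower in CCK1/2-KO in microglia (log2 ratio −0.43) and in oligodendrocytes (−1.16) and higher in neurons (0.24). Ctsd was lower in astroglia (−0.09) and neurons (−0.14) and higher in oligodendrocytes (0.25). The middle range of all genes ran from −0.25 to 0.18 in astroglia, −0.15 to 0.22 in neurons and −0.33 to 0.29 in oligodendrocytes. In microglia it ran from −0.33 to 0.38. The ctsd values lay inside these ranges and the ctsc values outside, in neurons narrowly. Without the 3 highest cells of each library, ctsc in microglia was −0.28 (−0.46 to −0.10), which lies inside the microglia range. With 1 library a genotype the differences between classes were not tested. For ctsc in oligodendrocytes, the value without cells carrying a microglia marker was −0.13 (−1.04 to 0.74).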

How the results depend on the processing

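No paired analysis was possible because each group is 1 library, and no library could be left out for the same reason. Over the alternatives that kept all cell types, the log2 ratio of ctsba stayed below −2 in all cells and in microglia, and no difference past 2-fold changed direction. Without cells carrying a microglia marker, the ratios over all cells were −2.38 for ctsba, −0.09 for ctsd, 0.18 for ctsc and −2.18 for grna.2, and 1 gene of the lysosomal list was at least 2-fold higher in place of 3. In microglia ctsba was −3.19 without the 3 highest cells of each library and −2.54 with at least 4 markers required, and grna.2 gave no ratio there because it had at most 4 UMIs under every setting. With doublets or every barcode kept it had 4 and 0 UMIs, and set against a floor of 3 counts it made 2 of the 6 genes at least 2-fold lower in place of 1. Lysosomal list genes at least 2-fold lower in microglia were 2 with doublets or every barcode kept, 0 with other classes ignored, 3 at a minimum of 20 UMIs and 0 at 200 UMIs, and 1 in place of 0 was at least 2-fold higher at 20 UMIs. At 200 UMIs 33 list genes remained in microglia. Over all cells 1 list gene was at least 2-fold lower at 20 UMIs and 1 at least 2-fold higher at 200 UMIs. Depth limits the rarer genes, and fish, dissociation and genotype cannot be told apart.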
